A study of Mus musculus with 20 samples.

Results

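The inhibin, activin and follistatin genes were followed through ovaries of young and old Ames dwarf mice and their normal stock mates. The 8 genes, chosen by name and not by their values, are 3 subunit genes (Inha, Inhba, Inhbb), 2 genes of secreted binding proteins (Fst, Fstl3) and 3 receptor genes (Acvr1b, Acvr2a, Acvr2b), out of 23457 genes in the count files. All 8 had enough counts to be tested, as did 16099 genes in all. Polyadenylated RNA was sequenced from ovaries of 20 females, 5 in each of 4 groups. The groups were normal mice, heterozygous at the dwarf locus (N/df), and dwarf mice, homozygous for it (df/df), each at 6 and at 22 months. The df allele is therefore also carried, in 1 copy, by the controls. Dwarf mice of this stock are long-lived, and their pituitary does not make growth hormone, prolactin or thyrotropin throughout life, so the model is not one of the ovary alone. The series title gives reproductive senescence in these mice as the subject.

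Inhibins pair the alpha subunit from Inha with a beta subunit from Inhba or Inhbb, whereas activins are dimers of beta subunits alone. Granulosa cells of growing follicles are the main ovarian source of both. Inhibin travels to the pituitary and holds back follicle-stimulating hormone, and activin promotes that hormone's release and also acts within the follicle. Activin binds the type II receptors encoded by Acvr2a and Acvr2b, which engage the type I receptor encoded by Acvr1b, and the signal passes to SMAD2 and SMAD3. Follistatin, from Fst, and its relative from Fstl3 bind activin outside the cell and keep it from its receptors.

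The 2 beta subunit genes are set beside each other below. The stretch that encodes the end of each mature hormone chain is therefore shown. It holds the last 111 coding bases before the stop codon, 5′ to 3′ on the coding strand. Capitals mark the bases that differ between the genes at the same place. The Inhba stretch lies at chr13:16027016-16027126 on the plus strand of mm10, and the Inhbb stretch at chr1:119417325-119417435 on the minus strand.
Inhba: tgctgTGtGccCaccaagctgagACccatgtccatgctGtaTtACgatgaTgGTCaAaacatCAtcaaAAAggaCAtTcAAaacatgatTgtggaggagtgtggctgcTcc
Inhbb: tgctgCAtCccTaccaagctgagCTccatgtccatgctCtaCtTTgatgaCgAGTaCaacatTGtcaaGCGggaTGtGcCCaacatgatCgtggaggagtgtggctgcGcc
Of the 111 bases, 84 were identical (75.7%) and 27 differed. The longest run of identical bases anywhere in the 2 coding sequences was 18, and between Inha and the beta genes it was 12 for Inhba and 13 for Inhbb, taken from GENCODE vM21 transcripts. For the receptor pair Acvr2a and Acvr2b the longest run was 14 bases, and for Fst and Fstl3 it was 12.

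The sequence upstream of the start site also differed between the beta genes. The 250 bases before the RefSeq start (GRCm38.p6) are shown for both genes, with each CG pair in capitals, at chr13:16011601-16011850 on the plus strand for Inhba and chr1:119422249-119422498 on the minus strand for Inhbb.
Inhba: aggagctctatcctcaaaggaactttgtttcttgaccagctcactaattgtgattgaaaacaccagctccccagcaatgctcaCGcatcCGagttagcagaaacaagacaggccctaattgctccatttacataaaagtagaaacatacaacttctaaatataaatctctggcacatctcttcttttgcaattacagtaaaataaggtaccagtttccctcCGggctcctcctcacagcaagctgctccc
Inhbb: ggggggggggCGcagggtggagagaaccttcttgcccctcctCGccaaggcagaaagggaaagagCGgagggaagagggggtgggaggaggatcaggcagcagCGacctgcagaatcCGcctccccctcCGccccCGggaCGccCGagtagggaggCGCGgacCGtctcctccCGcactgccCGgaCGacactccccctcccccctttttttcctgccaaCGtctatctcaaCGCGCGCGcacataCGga
The Inhba window held 3 CG pairs and 43.2% G and C, and the Inhbb window 21 CG pairs and 68.0%. CG reads the same on both strands. Among 32851 RefSeq promoter windows of this length, 29.0% held fewer CG pairs than Inhba and 83.7% fewer than Inhbb, and the median window held 6. The RefSeq start of Inhba lies 2624 bases upstream of the start in the gene model deposited with the series, whereas the starts of Inhbb coincide. Of the 8 genes, 7 had a RefSeq promoter entry. These letters describe the windows and say nothing of which factors bind there.

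Library totals over genes lay between 1365640 and 36068284 counts. Levels are given as CPM, the counts scaled to a common library total, and, where genes are set beside each other, as CPM per kilobase of exon in the deposited mm10 gene models. Normal 6-month replicate 2 stood apart. Its 8 granulosa markers summed to 54.0 CPM against 625 to 1336 in the other 4 libraries of its group, with the aromatase gene Cyp19a1 at 0 counts, and its 7 oviduct markers summed to 6228 CPM against 20.7 to 129. The lowest total belonged to normal 6-month replicate 3. Normal 22-month replicate 3 was the third library put in doubt by earlier results, and its 6 B and plasma cell markers summed to 1129 CPM against 49.0 to 163 in the rest of its group. Results that rest on these 3 libraries are given with and without them.

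Inha was by far the most abundant member. On the scale of CPM per kilobase it ranked first of the 8 in all 20 libraries, with a median of 803 and a range of 24.6 to 1922. Its gene lies at chr1:75507077-75510354 on the plus strand of mm10 and has 2 exons. Below it came Inhbb with a median of 36.3, Inhba with 31.1, Fst with 20.8 and Acvr1b with 14.9 CPM per kilobase. These 4 changed places between libraries, each ranking as high as the second place in at least 1 library, so their order is not fixed beyond the spread. Acvr2b followed with 6.51, and Fstl3 and Acvr2a were lowest, with 1.5 and 1.13 CPM per kilobase.

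In the 5 normal ovaries of 6 months, in replicate order, Inha stood at 2382, 36.0, 1935, 2812 and 2764 CPM. At 22 months the normal ovaries held 593, 413, 227, 1087 and 909 CPM. The young and old normal groups overlapped through replicate 2. Except for it, each young normal library lay above each old normal library. The share of all tested genes apart without replicate 2 was not counted. In dwarf ovaries Inha stood at 1970, 1419, 1674, 2336 and 2346 CPM at 6 months and 1009, 681, 1263, 1056 and 1078 CPM at 22 months. All old dwarf libraries lay below all young ones, and the mean went from 1949 ± 408 to 1018 ± 211 CPM (SD, n = 5 each). Among all tested genes, 12.2% were lower in this way without overlap in the same comparison. The log2 change with age was -1.68 ± 0.62 (SE) in normal mice (edgeR quasi-likelihood test, Benjamini-Hochberg adjusted p = 0.111) and -1.03 ± 0.61 in dwarf mice (edgeR adjusted p = 0.280), neither of which passed 0.05. Between genotypes the values were -0.06 ± 0.61 at 6 months and 0.59 ± 0.61 at 22 months. In whole ovaries, fewer cells of a type and less RNA per cell cannot be told apart.

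**Figure D1:**
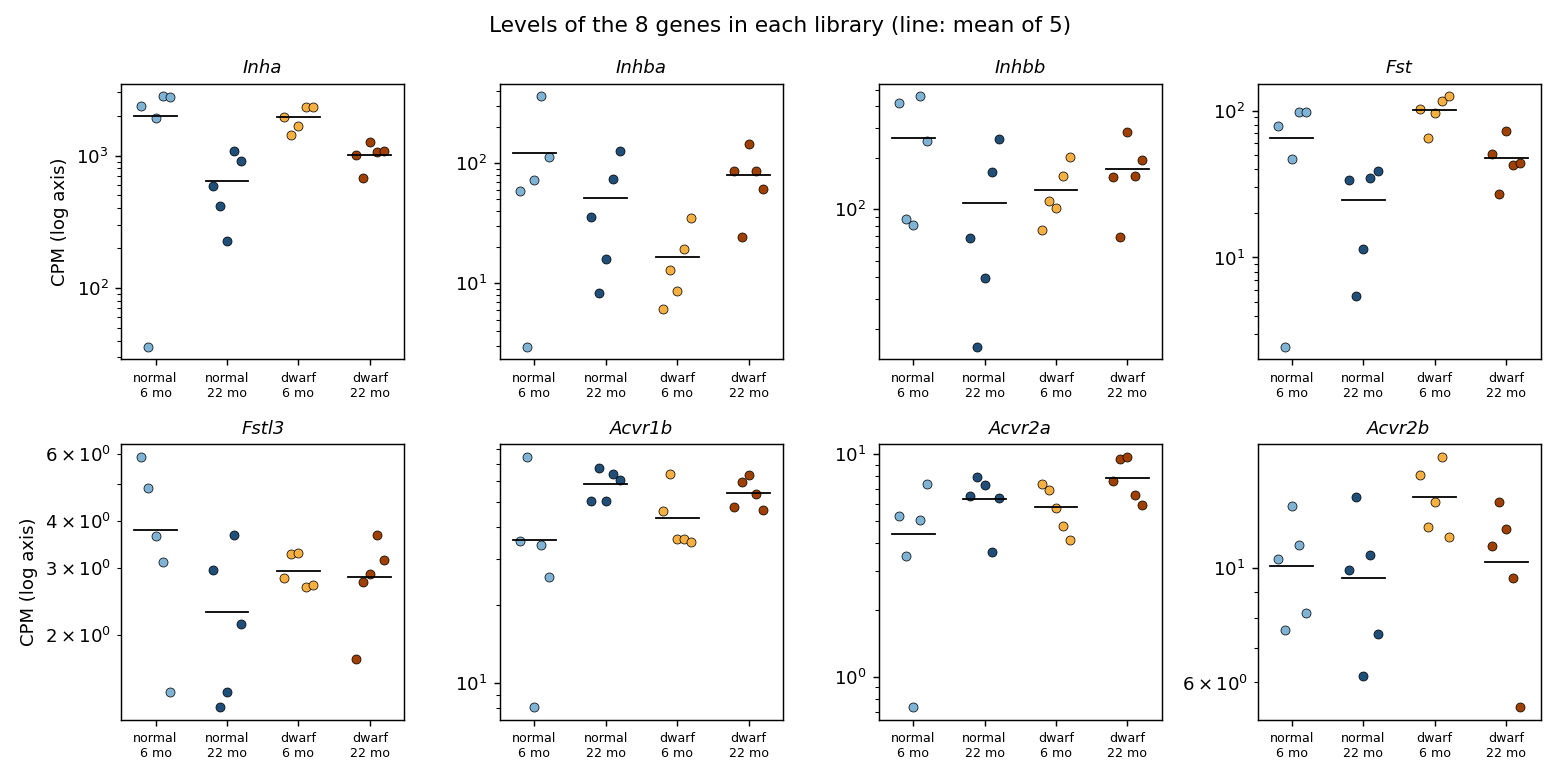
CPM of each of the 8 genes (log axis) in the 20 libraries, 1 point per library, with a line at the mean of the 5 libraries of a group. Normal 6-month replicate 2 is the lowest point of Inha, Inhba and Fst, and the 5 young dwarf libraries hold 6.14 to 35.3 CPM of Inhba.

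In dwarf mice the 2 beta subunit genes did not share the negative age change of Inha. In normal mice the log2 age changes of Inha and both beta genes were below 0. Inhba lies at chr13:16014475-16027211 on the plus strand. In young normal ovaries it stood at 59.3, 2.99, 73.2, 362 and 113 CPM and in old normal ovaries at 35.9, 8.33, 16.1, 73.5 and 125 CPM. In young dwarf ovaries it was 6.14, 13.0, 8.68, 19.5 and 35.3 CPM, and in old dwarf ovaries 85.9, 24.3, 144, 86.5 and 61.7 CPM. The young groups overlapped through normal replicate 2, and the young and old dwarf groups overlapped as well. Apart from replicate 2, every young normal library lay above every young dwarf library, and 4 of the 5 old dwarf libraries also did. The share of all tested genes apart in these ways was not counted. The log2 difference of dwarf from normal at 6 months was -2.88 ± 0.89 (edgeR adjusted p = 0.0714) and the change with age in dwarf mice 2.18 ± 0.86 (edgeR adjusted p = 0.107). Neither passed over all genes, at unadjusted p of 0.0043 and 0.021 in the same edgeR fit. The age change in normal mice had the opposite sign, -1.28 ± 0.84, and the difference of the 2 age changes was 3.46 ± 1.20 (edgeR adjusted p = 0.594).

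Inhbb, at chr1:119415465-119422248 on the minus strand, stood at 419, 87.7, 80.5, 458 and 252 CPM in young normal ovaries and 67.7, 15.7, 39.4, 165 and 258 CPM in old ones. Dwarf ovaries held 75.8, 112, 102, 155 and 202 CPM at 6 months and 154, 68.5, 282, 157 and 194 CPM at 22 months. The 4 groups overlapped throughout. Its log2 changes with age were -1.28 ± 0.61 in normal mice (edgeR adjusted p = 0.213) and 0.31 ± 0.60 in dwarf mice (edgeR adjusted p = 0.754), and the genotype difference at 6 months was -0.99 ± 0.60 (edgeR adjusted p = 0.410).

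Of the binding proteins, Fst (chr13:114452262-114458730, minus strand) varied with Inha across the libraries. It stood at 78.5, 2.48, 46.9, 98.4 and 98.3 CPM in young and 33.6, 5.50, 11.4, 34.5 and 38.7 CPM in old normal ovaries. In dwarf ovaries the values were 102, 64.6, 97.0, 116 and 125 CPM at 6 months and 50.3, 27.0, 72.6, 42.8 and 44.1 CPM at 22 months. In normal mice the groups overlapped through young replicate 2 alone, and in dwarf mice by 1 library on each side. The share of all tested genes overlapping so little was not counted. Lower without any overlap with age in dwarf mice were 12.2% of them. The log2 changes with age were -1.44 ± 0.61 in normal mice (edgeR adjusted p = 0.167) and -1.18 ± 0.60 in dwarf mice (edgeR adjusted p = 0.207). Fstl3 (chr10:79777274-79782630, plus strand) was low, at 1.29 to 5.91 CPM over the 20 libraries, and its largest log2 difference in the 4 pairwise comparisons was -0.77 ± 0.35 with age in normal mice (edgeR adjusted p = 0.198). The exons of Fstl3 overlap those of Prss57 on the other strand, and the strand setting of the counting is not given in the sources used here, so reads of the pair may be mixed.

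The receptor genes had smaller log2 values than the subunit genes with age in normal mice. Acvr1b (chr15:101174125-101212601, plus strand), the type I receptor of activin, stood at 35.3, 74.3, 8.05, 33.9 and 25.7 CPM in young normal ovaries, where replicate 2 was highest and the shallow replicate 3, with 11 counts, lowest. In old normal ovaries it was 50.1, 67.6, 50.3, 63.6 and 60.5 CPM. The means of the dwarf groups were 43.2 ± 12.3 CPM at 6 months and 54.2 ± 7.31 CPM at 22 months (SD, n = 5). The age change was 0.69 ± 0.30 in normal mice (edgeR adjusted p = 0.180) and 0.26 in dwarf mice, both on the log2 scale. Acvr2a (chr2:48814109-48903264, plus strand) ranged from 0.732 to 9.74 CPM, with the lowest value resting on 1 count in replicate 3, and its exons overlap those of Orc4 on the other strand. Acvr2b (chr9:119402501-119433506, plus strand) ranged from 5.37 to 16.4 CPM. For these type II receptor genes the largest log2 difference in the 4 pairwise comparisons was -0.49 ± 0.25, for Acvr2b with age in dwarf mice (edgeR adjusted p = 0.211).

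Over the 8 genes, edgeR called 0 in each comparison. Of all tested genes it called 6.75% with age in normal mice, 11.2% with age in dwarf mice, 4.57% between genotypes at 6 months and 3.81% at 22 months. For the difference of the age changes it called 0 of 16099 genes. Unadjusted p-values were under 0.05 for 5 of the 8 genes with age in normal mice, for 1 with age in dwarf mice, for 1 between genotypes at 6 months, for 0 at 22 months and for 1 in the difference of the age changes, beside 23.3, 28.1, 18.4, 18.0 and 7.0% of all tested genes in that order. The median log2 changes of the 8 genes were -1.02, 0.06, 0.09 and 0.42 in the same order of pairwise comparisons, beside -0.02, 0.002, -0.04 and -0.04 over all tested genes. Each group enters 2 of these comparisons, so they are not independent.

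**Figure D2:**
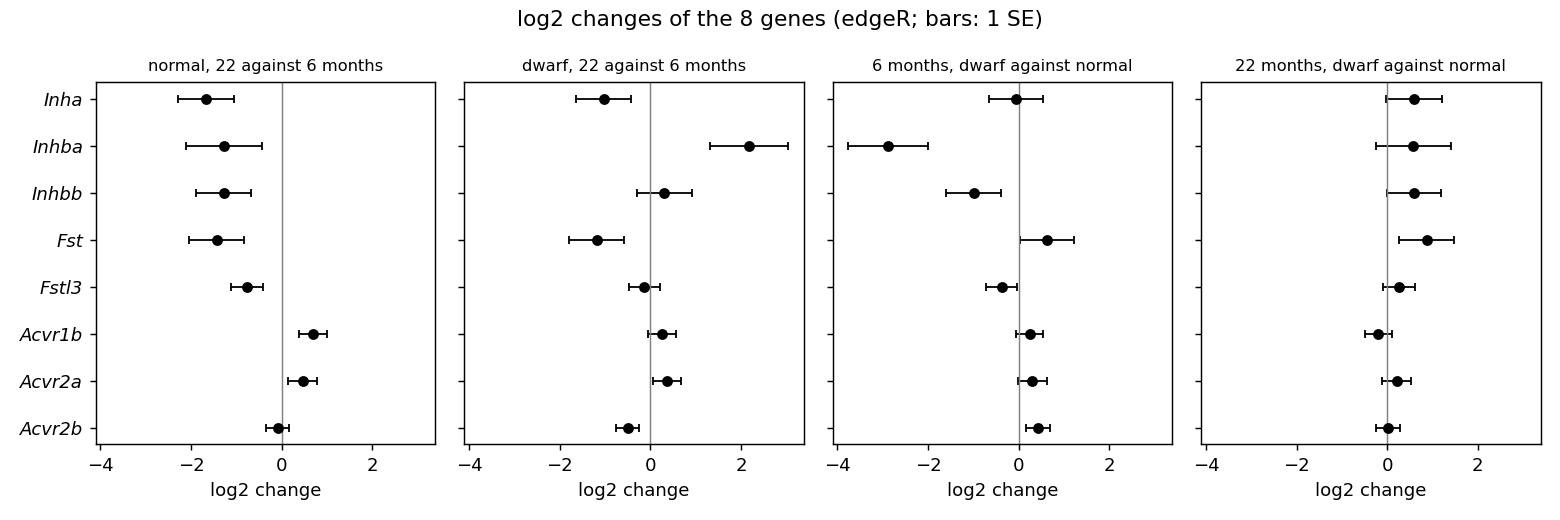
log2 change of each of the 8 genes in the 4 pairwise comparisons from the edgeR fit over 20 libraries, with bars of 1 SE. Inhba lies farthest from 0 at 6 months (-2.88) and with age in dwarf mice (2.18), and Inha, Inhba, Inhbb and Fst lie below -1 with age in normal mice.

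Normal 6-month replicate 2 decided several of these calls. Without it, the age change in normal mice was -1.94 for Inha (edgeR adjusted p = 0.000273), -1.71 for Fst (edgeR adjusted p = 0.00491) and 1.17 for Acvr1b (edgeR adjusted p = 0.00172), and the genotype difference of Inhba at 6 months was -3.16 (edgeR adjusted p = 0.0126). In that fit 26.9% of all tested genes were called with age in normal mice and 8.97% between genotypes at 6 months. Without all 3 libraries in doubt, Inha, Fst and Acvr1b were called with age in normal mice, at -1.78, -1.67 and 0.99, and Inhba at 6 months at -3.36 (edgeR adjusted p = 0.0125). Inha, Fst and Inhba were then also called with age in dwarf mice, at -0.99, -1.14 and 2.22 (edgeR adjusted p = 0.0043, 0.0329 and 0.0300). Called shares in that fit were 29.6% with age in normal mice, 28.7% with age in dwarf mice and 12.2% between genotypes at 6 months. A fit of the 10 dwarf libraries alone called the same 3 genes with age, beside 33.5% of all tested genes. The normal libraries alone gave 0 calls among 15304 genes with age, with Inha at -1.63 (edgeR adjusted p = 0.435). The young libraries alone gave 0 calls among the 8 genes, with Inhba at -2.92 (edgeR adjusted p = 0.167), beside 1.6% of all tested genes. With all 20 libraries, DESeq2 called Inha with age in normal mice (log2 -1.66), Inhba with age in dwarf mice (2.23) and Inhba at 6 months (-2.89), beside 11, 17.2 and 8.84% of all genes. In the same 3 comparisons limma voom called 3, 4 and 1 of the 8 genes, beside 23.6, 46.5 and 11.5%.

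The summed level of 8 granulosa markers was 840 to 1337 CPM in young dwarf ovaries and 344 to 588 in old ones, and 54.0 to 1336 in young and 153 to 419 in old normal ovaries. Of the 8 markers, edgeR called 2 as lower with age in normal mice and 1 in dwarf mice, with median log2 changes of -1.77 and -1.01. At 6 months 0 of the 8 were called between genotypes, with a median of 0.41. All 8 were above 0 in every library outside the young normal group, so the defining genes of follicles were detected in the labelled tissue. The 7 oviduct markers summed to 27.1 to 1552 CPM in young and 1999 to 3528 in old dwarf ovaries, and to 1683 to 3836 in old normal ovaries. The 5 luteal markers summed to 1398 to 2521 CPM in young dwarf against 146 to 10120 in young normal ovaries, and edgeR called 3 of them as lower in dwarf mice at that age. The 6 oocyte markers summed to 310 to 462 CPM in young and 46.9 to 80.0 in old dwarf ovaries, and to 5.17 to 406 in young and 5.93 to 38.7 in old normal ovaries. With the oviduct level of each library as a covariate, the age values in normal mice were -0.28 for Inha, -0.05 for Fst and 0.99 for Inhba (edgeR adjusted p = 0.926, 0.988 and 0.748), and those of Inhba in dwarf mice and at 6 months were 3.38 and -1.93 (edgeR adjusted p = 0.0513 and 0.229). The oviduct level itself rose with age, from a mean log2 CPM of 3.0 to 6.4 in normal and 3.7 to 6.4 in dwarf ovaries. Apart from normal 6-month replicate 2, the summed oviduct markers did not overlap between the ages of a genotype. The mean log2 level, which the fit used, did overlap in dwarf ovaries, at 0.668 to 6.244 in young and 5.868 to 6.875 in old ones. Age and oviduct level thus went largely together, and this fit cannot cleanly part them, for any gene. With age in normal mice edgeR called 5 of 6 B and plasma cell, 4 of 6 macrophage and 0 of 4 fat cell markers as higher. In dwarf mice it called 0, 0 and 3 of them. Of all tested genes, 2.6 and 2.92% were called as higher with age in normal and dwarf mice. The part of granulosa, luteal, oocyte, immune and fat cell content in the differences of the ligand genes was not tested.

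**Figure D3:**
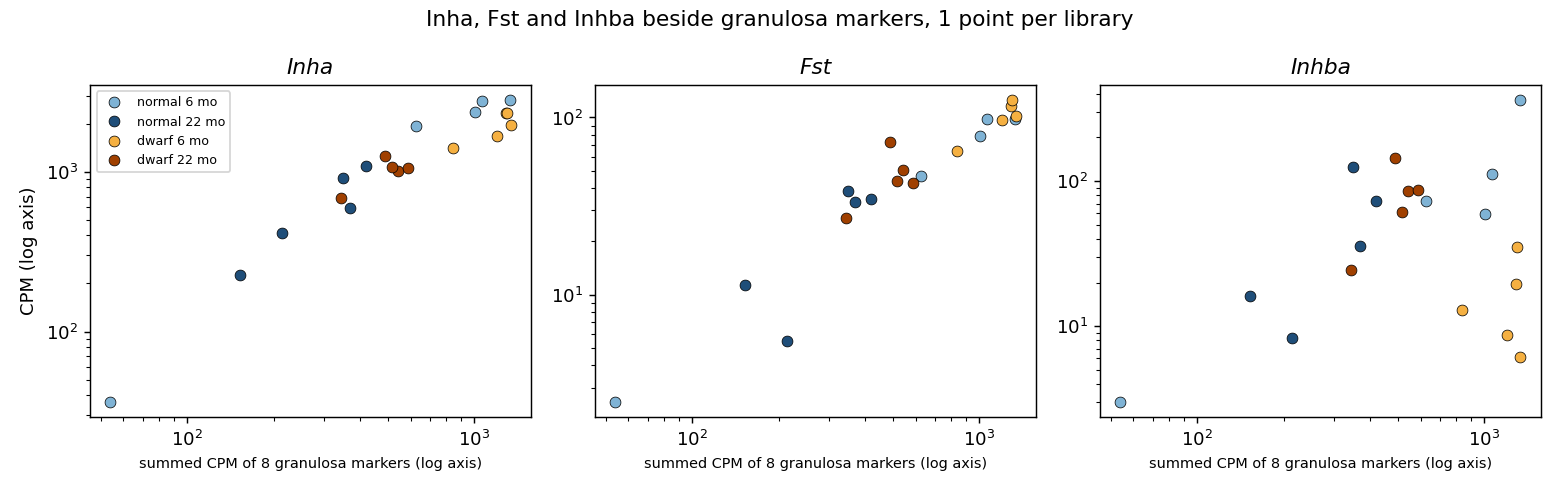
CPM of Inha, Fst and Inhba against the summed CPM of 8 granulosa markers, both on log axes, 1 point per library, coloured by group. Inha and Fst are higher in libraries with more marker counts, while the 5 young dwarf libraries, at 840 to 1337 CPM of markers, hold 6.14 to 35.3 CPM of Inhba.

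Ratios of members within a library do not depend on library size. The ratio of Inha to Inhba, both per kilobase, was 334, 114, 201, 125 and 69.4 in the 5 young dwarf ovaries. It was 41.9, 12.5, 27.5, 8.11 and 25.6 in young normal ovaries, 12.3, 29.2, 9.18, 12.8 and 18.2 in old dwarf ovaries and 17.3, 51.6, 14.7, 15.4 and 7.57 in old normal ovaries. All young dwarf libraries lay above all others. The share of all tested genes that would lie apart in this way when divided by Inhba was not counted. At 6 months the ratio was 7.40-fold higher in dwarf than in normal mice (log2 2.89 ± 0.57, SE, n = 5 each). With age in dwarf mice it fell by 3.28 ± 0.48 on the log2 scale. Both gave an exact two-sided permutation p = 0.00794, the smallest that 5 against 5 libraries can give, and an adjusted p = 0.0190 over the 12 ratio tests. In normal mice the log2 age difference was -0.19 ± 0.62 (exact permutation, adjusted p = 0.762), and the genotype difference at 22 months was -0.20 ± 0.53 (exact permutation, adjusted p = 0.762).

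The ratio of follistatin to the activin A subunit set the same group apart. It shares Inhba with the first ratio, and Fst and Inha varied together (r = 0.936 over the 20 libraries), so it is not separate evidence. Fst per Inhba, both per kilobase, was 10.8, 3.25, 7.28, 3.90 and 2.32 in young dwarf ovaries against 0.865, 0.544, 0.42, 0.178 and 0.571 in young normal ones. In old ovaries it was 0.384, 0.726, 0.33, 0.324 and 0.468 in dwarf and 0.612, 0.433, 0.463, 0.308 and 0.202 in normal mice. The young dwarf libraries again lay above all other libraries, and the share of all tested genes doing so against Inhba was not counted. The genotype difference at 6 months was 10.3-fold (log2 3.36) and the log2 age difference in dwarf mice -3.47, each with an exact permutation adjusted p = 0.0190. The values for age in normal mice (-0.28) and for genotype at 22 months (0.17) did not pass (exact permutation, adjusted p = 0.743 for both).

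Among the beta subunit genes themselves, Inhba per Inhbb was 0.226, 0.324, 0.238, 0.349 and 0.485 in young dwarf ovaries and 1.56, 0.989, 1.42, 1.53 and 0.883 in old dwarf ovaries, without overlap. The ratio was 3.98-fold higher at 22 months (log2 1.99, exact permutation, adjusted p = 0.0190). How many other genes set against Inhba part these groups in the same way was not counted. Young normal ovaries held 0.394, 0.0959, 2.53, 2.20 and 1.24 and old normal ovaries 1.48, 1.48, 1.14, 1.24 and 1.36, so that the young normal group spanned both ranges. The genotype difference at 6 months was -1.29 on the log2 scale (exact permutation, adjusted p = 0.317). As a share of the summed beta subunit counts per kilobase, Inhba took 18.4 to 32.7% in young dwarf, 46.9 to 60.9% in old dwarf, 53.2 to 59.6% in old normal and 8.66 to 71.7% in young normal ovaries. The alpha gene Inha stood at 22.7 to 61.7 times the summed beta level in young dwarf ovaries, and at 5.38 to 14.6 times in old dwarf, 1.09 to 19.8 times in young normal and 4.36 to 30.9 times in old normal ovaries.

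**Figure D4:**
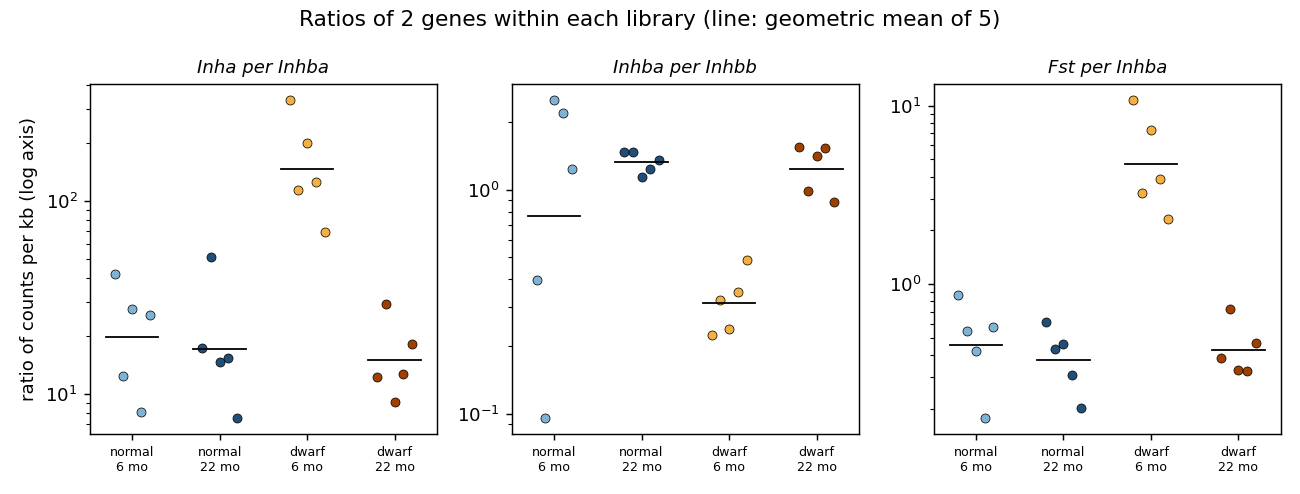
Ratios of counts per kilobase within each library (log axis), 1 point per library, with a line at the geometric mean of the 5 libraries of a group. For Inha per Inhba and Fst per Inhba the 5 young dwarf libraries, at 69.4 to 335 and 2.32 to 10.8, lie above the other 15.

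The ratios were chosen with earlier results of these libraries known, and their p-values describe these libraries. Every ratio holds Inhba, so the ratio tests are not independent of each other or of the uncalled Inhba differences. The deposited model of Inhba covers 1529 bases of exon against 6390 in GENCODE vM21, and that of Fst 2337 against 4589, so the level of a ratio depends on the model while its difference between groups does not depend on the length used. Without the 3 libraries in doubt, the genotype difference at 6 months was 2.83 for Inha per Inhba and 3.41 for Fst per Inhba on the log2 scale (exact permutation, adjusted p = 0.0857 for both, with 3 normal libraries left).

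The age responses of the genotypes were also set against each other, after the values had been seen. The log2 age difference of Inha per Inhba was lower in dwarf than in normal mice by -3.09 and that of Fst per Inhba by -3.19 (exact permutation of genotype labels within each age, 63504 regroupings, p = 0.00693 and 0.00734, adjusted p = 0.0110 for both over 3 ratios). For Inhba per Inhbb the difference was 1.19 (exact permutation p = 0.219), and 1.94 without normal 6-month replicate 2 (exact permutation, adjusted p = 0.0313). It was 1.56 without the 3 libraries in doubt and 1.08 without title numbers 21 to 23 (exact permutation, adjusted p = 0.06845 and 0.3115). The null of this test is that genotype makes no difference at either age, so the genotype difference at 6 months alone can break it.

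The other genes of the pathway were taken from a list of 20, of which 17 could be tested. The beta subunit genes Inhbc and Inhbe and the myostatin gene Mstn could not, and Mstn had 0 counts in all 20 libraries. Between genotypes, 3 of the 17 were higher in dwarf mice and 0 lower at 6 months, and again 3 and 0 at 22 months (Tgfbr3, Wfikkn2 and Pcsk6 at both ages), beside 2.27 and 1.96% of all tested genes called as higher and 2.3 and 1.86% as lower. With age 0 rose and 1 fell in normal mice, beside 2.6 and 4.14% of all tested genes. In dwarf mice 1 rose and 1 fell, beside 2.92 and 8.27%. Without the 3 libraries in doubt, the counts of higher and lower genes were 3 and 3 at 6 months and 4 and 2 at 22 months, 0 and 6 with age in normal mice and 1 and 3 with age in dwarf mice, beside 12.2, 10.8, 29.6 and 28.7% of all tested genes called in either direction. In that fit the type I receptor gene Acvr1 and the convertase gene Pcsk5 were lower in dwarf mice at both ages, at log2 -0.91 and -1.15 at 6 months (edgeR adjusted p = 0.00199 and 0.00628) and -0.74 and -0.85 at 22 months (edgeR adjusted p = 0.00585 and 0.0257). The ligand gene Gdf11 was lower in dwarf mice at 6 months, at -1.22 (edgeR adjusted p = 0.00523), and Zfyve9, whose product brings SMADs to the receptor, was higher at 22 months, at 0.50 (edgeR adjusted p = 0.0186). Pcsk5, Smad7 and the co-receptor gene Tdgf1 were then lower with age in both genotypes, and Smad3, Smad4 and Tgfbr3 with age in normal mice. Genes called in that fit alone were named after their values were seen. The medians over the 17 genes were log2 0.18 and 0.11 between genotypes at 6 and 22 months, beside -0.04 for all tested genes at both ages, and -0.12 and -0.15 with age in normal and dwarf mice.

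Tgfbr3 encodes betaglycan, the membrane protein that helps inhibin to occupy type II activin receptors. It stood at 176, 133, 95.9, 196 and 190.2 CPM in young normal and 298, 264, 318, 262 and 260.5 CPM in young dwarf ovaries. At 22 months the values were 131, 88.2, 129, 145 and 163 CPM in normal and 346, 239, 294, 349 and 359.5 CPM in dwarf ovaries. Every dwarf library lay above every normal library of the same age, as 4.07% of all tested genes did at 6 months and 5.16% at 22 months. The log2 differences were 0.80 ± 0.16 at 6 months (edgeR adjusted p = 0.00742) and 1.19 ± 0.17 at 22 months (edgeR adjusted p = 0.000553).

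Wfikkn2 encodes a secreted protein with a follistatin domain that binds myostatin and its relative from Gdf11. Normal ovaries held 10.4, 14.9, 4.39, 6.02 and 8.00 CPM at 6 months and 12.1, 7.56, 10.5, 11.4 and 5.73 CPM at 22 months. Dwarf ovaries held 34.6, 37.1, 32.6, 26.0 and 25.9 CPM at 6 months and 88.7, 47.5, 72.8, 90.3 and 152 CPM at 22 months, with all dwarf libraries above all normal ones and all old dwarf libraries above all young ones. In the same comparison 9.85% of all tested genes were higher without overlap. Wfikkn2 was higher in dwarf mice by log2 1.77 ± 0.30 at 6 months (edgeR adjusted p = 0.00237) and 3.17 ± 0.31 at 22 months (edgeR adjusted p = 2.68e-05), and rose with age in dwarf mice by 1.45 ± 0.29 (edgeR adjusted p = 0.00522).

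Pcsk6, a proprotein convertase of the family that cleaves precursors of this growth factor class, was higher in dwarf ovaries. Its mean went from 43.2 ± 17.1 CPM in normal to 114 ± 35.9 CPM in dwarf mice at 6 months (SD, n = 5; log2 1.38 ± 0.28, edgeR adjusted p = 0.0066), and from 36.5 ± 3.52 to 80.4 ± 22.0 CPM at 22 months (log2 1.05 ± 0.27, edgeR adjusted p = 0.0361). The call at 22 months did not hold without any 1 of normal 22-month replicates 1, 3, 4 and 5 or dwarf 22-month replicates 1, 3, 4 and 5 (log2 1.00 to 1.09), and that at 6 months was lost in a fit of the 10 young libraries alone (edgeR adjusted p = 0.0636). Smad7, which encodes an inhibitory SMAD, fell with age in both genotypes. In dwarf mice its mean was 52.1 ± 7.74 CPM at 6 and 31.0 ± 5.64 CPM at 22 months (log2 -0.83 ± 0.16, edgeR adjusted p = 0.00481), and in normal mice 43.0 ± 9.81 and 29.0 ± 5.87 CPM (log2 -0.59 ± 0.16, edgeR adjusted p = 0.0367). The call in normal mice was lost without any 1 of 6-month replicates 1 and 4 and 22-month replicates 2, 3 and 5 (log2 -0.60 to -0.52), and with the oviduct level as a covariate (-0.38, edgeR adjusted p = 0.358). Smad2, Smad3 and Smad4, whose products carry and complete the activin signal, were called in no comparison with all 20 libraries. Without the 3 libraries in doubt, Smad3 and Smad4 were called as lower with age in normal mice, at -0.55 and -0.36 (edgeR adjusted p = 0.00123 and 0.0255).

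**Figure D5:**
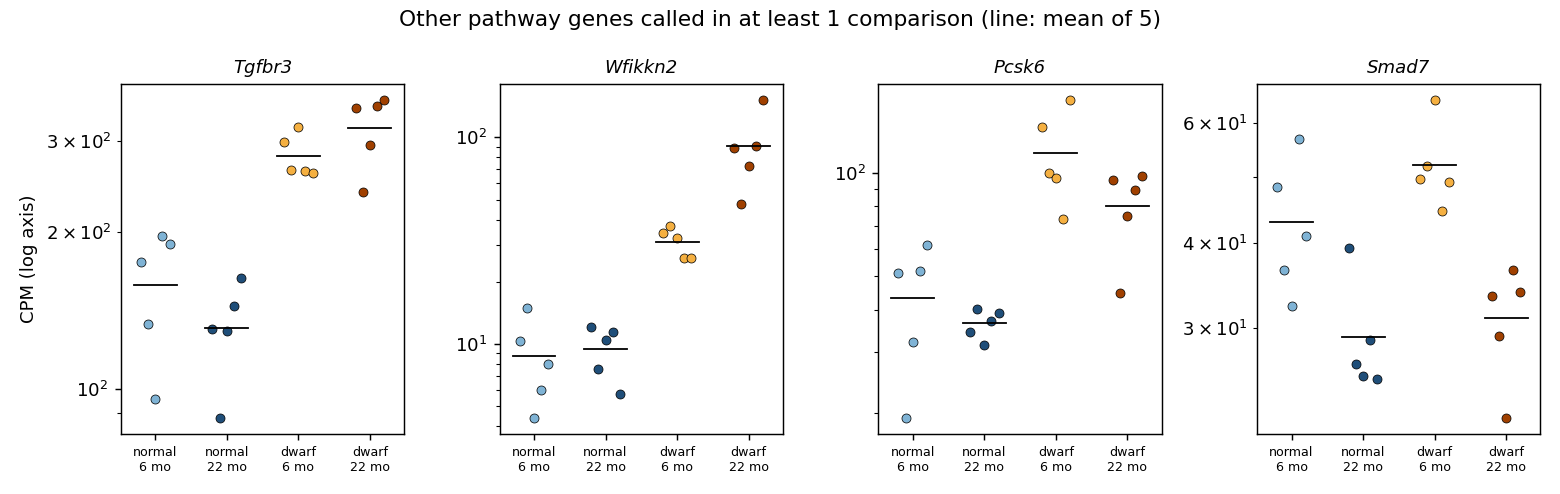
CPM (log axis) of the 4 other pathway genes called in at least 1 comparison, 1 point per library, with a line at the mean of the 5 libraries of a group. Tgfbr3 and Wfikkn2 are higher in all dwarf libraries than in all normal libraries of the same age.

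The members differed in which genes they resembled. Likeness was measured as Pearson's r of log2 CPM over the 20 libraries, among the 12417 genes that averaged 5 CPM or more, and is a description, since the libraries share groups and depth. Inha was most like Hsd17b1 (r = 0.968), St3gal5 (0.965) and Dhh (0.942), and Fst most like Hsd17b1 (0.965), Serpine2 (0.963) and Tox2 (0.957). Hsd17b1, the granulosa enzyme that makes estradiol from estrone, was thus first for both, and is also one of the 8 granulosa markers used here. Inhba was most like C530008M17Rik (0.861), the fatty acid elongase gene Elovl6 (0.818) and Cyp19a1 (0.809). Inhbb was most like Armcx3 and Nppc (both 0.827) and Grem1 (0.802), where Nppc encodes the natriuretic peptide that keeps oocytes in meiotic arrest and Grem1 a secreted inhibitor of bone morphogenetic proteins. Without normal 6-month replicate 2, these coefficients lay between 0.743 and 0.959, with Cyp19a1 for Inhba lowest and Tox2 for Fst highest. Once the group means were removed as well, they lay between 0.506, for Inhba with Elovl6, and 0.926, for Fst with Serpine2.

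Among the members themselves, Inha and Fst had r = 0.936 over the 20 libraries and 0.935 after the group means were removed. Inha and Inhba had r = 0.529 over the libraries and 0.847 after the group means were removed, and Inhba and Fst 0.464 and 0.901. Inhba and Inhbb had r = 0.691 and 0.790 in the same order. Without normal 6-month replicate 2, Inha and Inhba had r = 0.290 over the libraries and 0.722 after the group means were removed, and Inhba and Fst 0.231 and 0.790. Inha and Fst then had 0.897 and 0.770, and Inhba and Inhbb 0.729 and 0.846. With and without that library, the coefficients of Inhba with Inha and with Fst were higher once the group means were removed.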

How the data were processed

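The authors deposited raw counts of reads per gene, 1 table per library, in HTSeq format with 23457 genes. The submitters' processing notes name mm10, TopHat2 2.0.10, TopHat, Bowtie2, HTSeq, edgeR and DESeq, without their roles. The strand setting and annotation release are not given in these sources. Rows that name no gene, 9.84 to 17.6% of each file, entered neither totals nor tests. No per-sample column went unused (0). Groups came from the labels. Each group of 5 was taken as 5 mice.

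Counts were tested in R 4.3.3 with edgeR 4.0.16 (TMM scaling, filterByExpr with a minimum count of 10 and total of 15, 4 group means over 20 libraries, robust quasi-likelihood fit) and adjusted by the Benjamini-Hochberg method over 16099 genes. The SE is the absolute log2 change over the square root of F. The test was also checked on simulated counts. Ratios are log2 ratios of counts per kilobase with 0.5 added, tested by exact two-sided permutation in scipy 1.17.1 and adjusted over 12 tests. Named genes were all 8 members, up to 3 called pathway genes per comparison with the smallest p, and the 3 genes most like Inha, Inhba, Inhbb and Fst. The members, lists and ratios were chosen with earlier results of these data known. Alternatives were other scalings and filters, DESeq2 1.42.0, limma voom (limma 3.58.1), fits of fewer libraries, a replicate block, an oviduct covariate and, for ratios, no number added and TMM values. Promoter sequences are from RefSeq (GRCm38.p6) and coding sequences from GENCODE vM21.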

Additional observations from a re-analysis of the deposited data

Results flagged for a closer look

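The age responses of 2 ratios stood apart between the genotypes when genotype labels were permuted within each age. The log2 change of Inha per Inhba between 6 and 22 months was lower in dwarf than in normal mice by -3.087 (exact permutation, adjusted p = 0.0110), and that of Fst per Inhba by -3.189 (exact permutation, adjusted p = 0.0110). Both ratios hold Inhba, so they are not separate results. The test was added after the values were seen, and its null is that genotype makes no difference at either age, so the genotype difference at 6 months alone can break it. Dixon's test of the farthest library, on CPM for the 8 genes and on log2 ratios, passed its critical value in 0 of 44 groups of 5. Normal 6-month replicate 2 still stood apart in its markers, and its Inha level of 36.0 CPM lay far below the 1935 to 2812 CPM of the rest of its group.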

How the results depend on the processing

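The count of called members was 0 of 8 in each comparison and moved as follows. With age in normal mice it was 1 with DESeq2 (Inha -1.66, adjusted p = 0.0393), 3 with limma voom (Inha -1.61, Fst -1.51, Acvr1b 0.85), 3 without the 3 libraries in doubt, and 0 to 3 with single libraries left out. With age in dwarf mice it was 1 with DESeq2 (Inhba 2.23), 4 with voom (Inhba 2.81, Fst -1.19, Inha -1.01, Acvr2b -0.55), 3 in a fit of only the groups compared and 3 without the libraries in doubt. Between genotypes at 6 months it was 1 (Inhba) with DESeq2 (-2.89, adjusted p = 0.00435), voom (-3.38) and without the libraries in doubt, and 0 to 1 with single libraries left out. With settings other than single libraries left out, counts called over all genes ranged from 0 to 4848 for age in normal mice, 575 to 7492 for age in dwarf mice, 244 to 1991 for genotype at 6 months and 272 to 2266 at 22 months. For the difference of the age responses, edgeR's 0 calls stood beside 1127 genes at an unadjusted p under 0.05, and the alternatives called 0 to 202. The cause of these moves was not tested.

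Some uncalled values changed sign, though age values from the fit with the oviduct covariate cannot be cleanly parted from the oviduct level. With the oviduct level as a covariate, Inhba with age in normal mice went from -1.28 to 0.99, Acvr1b with age in dwarf mice -0.17, Inha at 6 months 0.56, and the differences of the age responses -0.36 for Fst and, from 0.65, -0.017 for Inha. With the replicate block Inha at 6 months was 0.15 and Acvr2b at 22 months -0.0076. Without title numbers 21 to 23 Inha at 6 months was 0.057 and the difference for Fst -0.037. Without the libraries in doubt Acvr2b with age in normal mice was 0.14, Acvr2a at 6 months -0.0020, Acvr2b at 22 months -0.076 and the difference for Acvr2a 0.29. With dwarf 22-month replicates 1 and 4, the most alike pair in earlier results, summed, the last was 0.0068. With single libraries left out, ranges that crossed 0 were -0.26 to 0.079 (Acvr2a) and -0.014 to 0.56 (Fst) for the difference, -0.078 to 0.23 (Acvr2b, 22 months), -0.23 to 0.097 (Acvr2b, age in normal mice), -0.22 to 0.013 (Fstl3, age in dwarf mice) and -0.34 to 0.028 (Inha, 6 months).

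The 5 called ratios had an exact permutation adjusted p of 0.0381 with each library left out. Their groups do not overlap, so each of these tests had to give its smallest possible p and could not fail. Only the sizes could move. Inha per Inhba ranged from -3.55 to -2.98 (age, dwarf) and 2.57 to 3.16 (6 months), Fst per Inhba from -3.72 to -3.17 and 3.02 to 3.62, and Inhba per Inhbb from 1.88 to 2.15. Uncalled ratios that changed sign ranged from -0.59 to 0.10 (Inha per Inhba, age in normal mice), and at 22 months from -0.50 to 0.20 (Inha per Inhba), -0.051 to 0.35 (Fst per Inhba) and -0.18 to 0.023 (Inhba per Inhbb). The difference of age responses for Inhba per Inhbb ranged from 0.76 to 1.94, the highest without normal 6-month replicate 2 (exact permutation, adjusted p = 0.0313). It was 1.56 without the 3 libraries in doubt (exact permutation, adjusted p = 0.06845). Without the libraries in doubt Inha per Inhba and Fst per Inhba at 6 months were 2.83 and 3.41 (exact permutation, adjusted p = 0.0857). There too the unadjusted p was the smallest possible with the libraries left, and neither ratio could pass. Same-numbered libraries correlated from -0.215 to 0.719 (median 0.00142, 10 of 30 pairs over 0.1). The labels do not say that the numbers pair the mice, and these correlations cannot settle it. With the replicate block the called ratios, at -3.28 and 2.89, -3.47 and 3.36, and 1.99, had an exact sign-flip permutation adjusted p of 0.150, and 5 pairs cannot pass. Pcsk6 at 22 months lost its call in 10 of 24 alternatives, at 6 months in 1, and Smad7 with age in normal mice in 8, whereas Wfikkn2 and Tgfbr3 lost none. Depth limits Acvr2a, Acvr1b and Fstl3 in normal 6-month replicate 3.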
